A study of Mus musculus with 23 samples.

Results

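Glycolysis splits glucose into pyruvate, and its transcripts can be raised when oxygen falls by the hypoxia-inducible factors, in which an alpha subunit that is destroyed in the presence of oxygen pairs with a stable beta subunit. In macrophages the same genes also follow inflammatory activation, and the alpha subunits are encoded by Hif1a and Epas1. The set described here held 35 genes, named by symbol and all present among the 33280 rows of the count table. They were 21 genes of glucose uptake, glycolysis and lactate output, 12 hypoxia response genes and the 2 alpha subunit genes.

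RNA was sequenced from 23 libraries of brain macrophages sorted from Ccr2CreERT2/+ R26tdT/tdT mice, in which tamoxifen marks cells that express the monocyte receptor gene Ccr2, and the cells that descend from them, with the red protein tdT. To deplete and repopulate brain macrophages, mice were gavaged for 7 days with BLZ945 (200 mg/kg), which blocks the receptor for CSF-1, or with vehicle (CTL), then given tamoxifen at 2 mg per day, and after 8 weeks a thromboembolic stroke made by injecting thrombin into the middle cerebral artery. Cells were taken 1 day after the stroke from a coronal slice without choroid plexus. Microglia (MG) were sorted as CD206-negative and subdural CNS-associated macrophages (sdCAMs) as CD206-positive cells among CD11b+ cells with intermediate CD45, giving 5 MG libraries of each treatment, 5 tdT- sdCAM libraries of each treatment and 3 tdT+ sdCAM libraries of BLZ945 animals. Every group carried both alleles and had tamoxifen and stroke, so no value here measures the effect of ischaemia itself. Each CTL library came from 1 animal, whereas BLZ945 libraries pooled 2 animals except those of F2, so pooling and treatment cannot be told apart except at that label. By the labels, 1 animal number appears both for F2 and in the pool of M1 among BLZ945 libraries, so these may not be independent. Within a treatment, libraries with the same label (F1, F2, F3, M1 or M2) came from the same animal or pool.

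Total counts were 9433960 to 13276081 per library. The sorted populations carried their markers. The summed level of 6 microglial markers was 17101 to 26221 CPM, the count scaled to library size, in MG and 1150.4 to 2355 CPM in sdCAMs, and that of 6 sdCAM markers was 11727 to 17276 CPM in sdCAMs and 7 to 47.2 CPM in MG. The library tdT- BLZ945 F1 held the highest sums of 5 monocyte markers (231 CPM, against 3.72 to 99.8 CPM in the other 22 libraries) and of 5 neutrophil markers (74.2 CPM, against 0 to 36.7 CPM). In sorted bulk samples, fewer cells that express a gene and less RNA per cell cannot be told apart.

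Promoters are shown for 6 members that differed between sdCAMs and MG in every comparison of the 2 cell types, chosen after their values were seen, because hypoxia-inducible factors bind a short core sequence. Sequences are RefSeq promoters of mouse build GRCm38.p6, from 250 bases before to 50 bases after the transcription start, read in the direction of the gene. Capitals mark the run ACGTG or the run GCGTG, and their reverse complements, the run CACGT and the run CACGC. The promoters of Slc16a3 (chr11:120948817-120949116 on the plus strand), Pfkfb3 (chr2:11553880-11554179 on the minus strand), Slc2a1 (chr4:119108495-119108794 on the plus strand) and Pdk1 (chr2:71872974-71873273 on the plus strand) belong to members lower in sdCAMs. Those of Pfkp (chr13:6648722-6649021 on the minus strand) and Gpi1 (chr7:34230287-34230586 on the minus strand) belong to members higher in sdCAMs.
Slc16a3: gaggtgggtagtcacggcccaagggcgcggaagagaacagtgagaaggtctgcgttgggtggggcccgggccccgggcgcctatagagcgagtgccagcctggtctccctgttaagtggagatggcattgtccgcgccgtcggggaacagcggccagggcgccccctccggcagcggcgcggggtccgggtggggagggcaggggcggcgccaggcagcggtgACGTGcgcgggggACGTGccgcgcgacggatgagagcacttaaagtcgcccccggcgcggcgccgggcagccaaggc
Pfkfb3: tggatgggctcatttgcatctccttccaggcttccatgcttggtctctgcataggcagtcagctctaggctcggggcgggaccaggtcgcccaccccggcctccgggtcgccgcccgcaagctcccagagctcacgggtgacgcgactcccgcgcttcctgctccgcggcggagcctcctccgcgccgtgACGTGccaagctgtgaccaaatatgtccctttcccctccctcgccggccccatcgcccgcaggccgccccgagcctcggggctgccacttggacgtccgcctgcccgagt
Slc2a1: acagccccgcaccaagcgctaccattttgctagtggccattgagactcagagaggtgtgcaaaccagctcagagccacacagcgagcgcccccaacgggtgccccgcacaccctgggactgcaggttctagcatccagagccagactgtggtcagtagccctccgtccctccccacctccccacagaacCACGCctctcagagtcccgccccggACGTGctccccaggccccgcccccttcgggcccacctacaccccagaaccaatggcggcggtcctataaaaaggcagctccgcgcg
Pdk1: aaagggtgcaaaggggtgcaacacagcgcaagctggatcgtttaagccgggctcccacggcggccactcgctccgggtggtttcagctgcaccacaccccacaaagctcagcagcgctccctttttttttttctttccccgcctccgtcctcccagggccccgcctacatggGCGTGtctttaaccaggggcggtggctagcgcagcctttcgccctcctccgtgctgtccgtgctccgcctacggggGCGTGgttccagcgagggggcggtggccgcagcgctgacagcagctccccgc
Pfkp: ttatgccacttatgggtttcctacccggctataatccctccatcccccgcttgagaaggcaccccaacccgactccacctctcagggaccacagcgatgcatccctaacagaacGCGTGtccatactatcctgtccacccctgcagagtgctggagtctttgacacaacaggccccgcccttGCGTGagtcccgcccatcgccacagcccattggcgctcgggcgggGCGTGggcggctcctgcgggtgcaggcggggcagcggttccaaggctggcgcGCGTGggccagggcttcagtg
Gpi1: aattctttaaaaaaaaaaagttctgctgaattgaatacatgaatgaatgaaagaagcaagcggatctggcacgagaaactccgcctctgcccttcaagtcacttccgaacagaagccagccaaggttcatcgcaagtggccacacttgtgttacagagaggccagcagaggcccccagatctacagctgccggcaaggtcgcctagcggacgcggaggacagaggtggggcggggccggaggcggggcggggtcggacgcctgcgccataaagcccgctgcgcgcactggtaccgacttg

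At least 1 of these letters' runs was found in 24 of the 31 members with a RefSeq promoter (77.4%), and in 43.8% of the promoters of all 27025 genes. An ACGTG run on either strand was found in 18 of 31 (58.1%) against 19.7%. The E-box CACGTG, which holds ACGTG on both strands, was present in 4 of 31 (12.9%) against 7.24%. All promoters include genes with few reads in these cells, and base composition was not matched. The printed Slc16a3 promoter held 2, Slc2a1 2, Pdk1 2, Pfkfb3 1, Pfkp 4 and Gpi1 0 of the runs, so a member that was higher in sdCAMs held the most runs and another the fewest. Angptl4, Bnip3l, Ndrg1 and Epas1 had no entry.

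The first question was whether the 2 kinds of macrophage differed in these genes after the same stroke. In CTL animals, 12 of the 35 members passed edgeR's quasi-likelihood test of tdT- sdCAMs against MG at an adjusted p-value under 0.05 (34.3%), beside 25.6% of all genes tested. Of these, 4 were higher in sdCAMs (15.3% of all genes) and 8 lower (10.3% of all genes). In BLZ945 animals 16 did (45.7%, beside 32.4% of all genes), 6 higher (18.3% of all genes) and 10 lower (14.1%), and without tdT- BLZ945 F1 15 did. Between tdT+ BLZ945 sdCAMs and MG BLZ945, 16 did (45.7%, beside 25.2% of all genes), again 6 higher (14.6% of all genes) and 10 lower (10.6%). The last 2 comparisons used the same MG BLZ945 libraries. The median log2 fold change of the members was -0.28, -0.24 and -0.30 in these 3 comparisons, beside -0.01, -0.02 and -0.01 over all genes tested. Transcripts for glucose uptake, the activator of phosphofructokinase, the brake on pyruvate oxidation and lactate export (Slc2a1, Pfkfb3, Pdk1 and Slc16a3) were lower in sdCAMs in all 3 comparisons, whereas Gpi1 and Pfkp were higher in all 3. Epas1 (all 3 comparisons) and Adm (both with tdT- sdCAMs) were also called higher, but both were too low to be tested within MG and entered the test through the sdCAM libraries, where they were higher. Without Epas1 and Adm, 10 of 33 members passed in CTL animals (30.3%, 2 higher), 14 of 33 in BLZ945 animals (42.4%, 4 higher) and 15 of 33 for tdT+ sdCAMs (45.5%, 5 higher), with median log2 fold changes of -0.31, -0.27 and -0.34. Egln3 stayed among the 14 as a lower member, although 4 of 5 tdT- BLZ945 libraries held 3 counts or fewer of it. No share of all genes tested within both cell types is given, so these shares have no background under the same restriction. Markers of 2 other cell types were higher in every sdCAM library than in every MG library, 4 neuron markers with a sum of 39.4 to 116 CPM in sdCAMs and 4.31 to 12.4 CPM in MG and 4 fibroblast markers with 15.1 to 57.2 and 0.153 to 2.22 CPM. Their part in the members that were higher in sdCAMs, such as Gpi1 and Pfkp, was not tested.

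**Figure D1:**
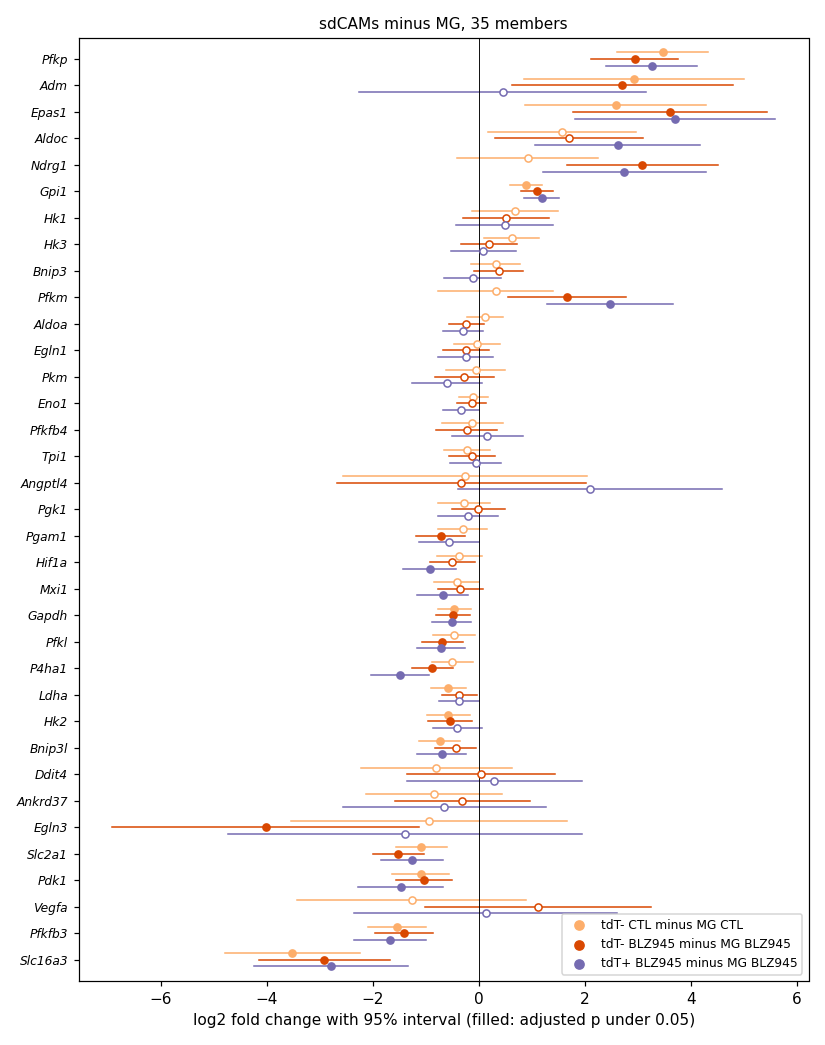
Log2 fold changes of the 35 members between sdCAMs and MG, with 95% intervals, for tdT- sdCAMs in CTL and in BLZ945 animals and for tdT+ sdCAMs in BLZ945 animals. Filled points passed an adjusted p-value of 0.05. Pfkp lies farthest to the right in CTL animals (3.47) and Slc16a3 farthest to the left (-3.52), and the points of Epas1 and Adm rest on few MG reads.

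Per-library values are listed throughout in the order F1, F2, F3, M1 and M2, and for tdT+ sdCAMs in the order F2, F3 and M2. Slc2a1 encodes the glucose transporter GLUT1. Its level was 80.4, 61.6, 85, 71.3 and 99.9 CPM in MG CTL and 41.9, 33, 24.2, 50.3 and 36.5 CPM in tdT- CTL sdCAMs. In BLZ945 animals it was 81.3, 68.5, 126, 95.9 and 109 CPM in MG, 31.8, 51.4, 31.5, 19.6 and 32.1 CPM in tdT- and 47.7, 44.7 and 27.4 CPM in tdT+ sdCAMs. Every sdCAM library lay below every MG library. The log2 fold change of Slc2a1 was -1.09 (SE 0.23, adjusted p = 0.00109) in CTL animals, -1.52 (SE 0.23, adjusted p = 3.18e-05) for tdT- and -1.27 (SE 0.28, adjusted p = 0.00183) for tdT+ sdCAMs in BLZ945 animals. The summed level of 6 markers of endothelial cells, in which this transporter is abundant, was 19.5 to 28.6 CPM (median 24.6) in MG and 7.11 to 67.2 CPM (median 13.6) in tdT- sdCAMs of CTL animals. In BLZ945 animals it was 5.46 to 21.8 CPM (median 9.8) in MG, 8.18 to 44.7 CPM (median 20.3) in tdT- and 26.6 to 46.5 CPM (median 32.4) in tdT+ sdCAMs. The median was thus higher in MG in CTL animals and lower in MG in BLZ945 animals, and the part of these cells in the Slc2a1 difference was not tested.

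Slc16a3, which encodes the lactate exporter MCT4, had the most negative fold change among members called in every comparison. It stood at 81.9, 72.1, 87.6, 121 and 109 CPM in MG CTL and at 5.47, 1.93, 7.11, 11.4 and 14.7 CPM in tdT- CTL sdCAMs. After BLZ945 it stood at 86.6, 93.3, 157, 86.2 and 84.2 CPM in MG, 27.4, 18.4, 11.5, 8.96 and 0.111 CPM in tdT- and 17.2, 13.4 and 13.2 CPM in tdT+ sdCAMs. All MG libraries exceeded all sdCAM libraries, the tdT- BLZ945 library M2 held almost no reads of the gene, and MG BLZ945 F3 was the highest. Between the cell types the log2 fold change was -3.52 (SE 0.61, adjusted p = 0.000134) in CTL animals, -2.92 (SE 0.59, adjusted p = 0.000643) for tdT- and -2.79 (SE 0.70, adjusted p = 0.00473) for tdT+ sdCAMs in BLZ945 animals. These calls held under every alternative that tested the gene, which a minimum of 10 counts in every library left out, with log2 fold changes of -3.86 to -2.58.

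Pfkfb3 makes the bisphosphate that activates phosphofructokinase. It was at 86.7, 72.9, 69.9, 86.6 and 73.5 CPM in MG CTL and 30, 32.4, 20.7, 39.3 and 10.9 CPM in tdT- CTL sdCAMs. With BLZ945 it was at 111, 90.2, 128, 100.2 and 130.1 CPM in MG, 55.4, 39.4, 48.3, 21.7 and 43 CPM in tdT- and 22.6, 35 and 47.1 CPM in tdT+ sdCAMs. Again no sdCAM library reached an MG library of the same treatment. For sdCAMs against MG, the log2 fold change was -1.54 (SE 0.26, adjusted p = 0.000117), -1.42 (SE 0.26, adjusted p = 0.000247) and -1.68 (SE 0.33, adjusted p = 0.000485) in the same order of comparisons.

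Pdk1 encodes a kinase that holds back pyruvate dehydrogenase and so the entry of pyruvate into mitochondrial oxidation. Its level was 77.7, 92.8, 37.4, 89.5 and 46.9 CPM in MG CTL and 17.2, 30.2, 42.2, 28.9 and 41.6 CPM in tdT- CTL sdCAMs, and the groups overlapped because MG F3 was low. In BLZ945 animals it was 87.2, 72.8, 81.3, 74.2 and 91.3 CPM in MG, 29, 33, 52, 47.2 and 35.4 CPM in tdT- and 17.4, 55.7 and 14.5 CPM in tdT+ sdCAMs, with no overlap with MG. In log2 units the fold change was -1.10 (SE 0.26, adjusted p = 0.0027), -1.04 (SE 0.26, adjusted p = 0.00367) and -1.48 (SE 0.39, adjusted p = 0.00652). The last value became -2.35 without tdT+ BLZ945 F3, and the call was lost without tdT+ BLZ945 F2 (adjusted p = 0.0515).

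Hexokinases commit glucose to the cell. Hk2 was at 105, 94.6, 132, 120 and 87.4 CPM in MG CTL and 78.4, 69.6, 114, 54.6 and 43.1 CPM in tdT- CTL sdCAMs. After BLZ945 it was at 125, 136, 129.6, 126 and 118 CPM in MG and 89.2, 114, 73.8, 73 and 80.7 CPM in tdT- sdCAMs. The groups overlapped in CTL animals and did not in BLZ945 animals, where every MG library was above every tdT- library. The log2 fold change was -0.58 (SE 0.20, adjusted p = 0.034) in CTL and -0.55 (SE 0.20, adjusted p = 0.0371) in BLZ945 animals, while tdT+ sdCAMs, at 103, 96.7 and 87.3 CPM and also below every MG BLZ945 library, gave -0.41 (SE 0.22, adjusted p = 0.192), and were called in a model of these 8 libraries alone (adjusted p = 0.0391). In CTL animals Hk2 lost its call without MG CTL M1, tdT- CTL M1, MG CTL F1, tdT- CTL F2, tdT- CTL M2 or MG CTL F3 (adjusted p 0.0517 to 0.0954), and in BLZ945 animals without MG BLZ945 F1, MG BLZ945 F2, MG BLZ945 F3, tdT- BLZ945 F3, MG BLZ945 M1, tdT- BLZ945 M1 or tdT- BLZ945 M2 (adjusted p 0.0556 to 0.0795). Hk1 and Hk3 passed in no comparison, with log2 fold changes of 0.68 and 0.62 in CTL animals. With the animal as a block Hk3 was called there (adjusted p = 0.0179), and Hk1 was called in BLZ945 animals without tdT- BLZ945 F2 (adjusted p = 0.0189).

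Gpi1 encodes glucose phosphate isomerase, the step after hexokinase. It ran opposite to the genes above, at 104, 98.8, 109.7, 99.7 and 109.6 CPM in MG CTL and 202, 163, 217, 196 and 188 CPM in tdT- CTL sdCAMs. With BLZ945 it was at 85.5, 122, 129.6, 111 and 99.8 CPM in MG, 171, 314, 199, 241 and 241 CPM in tdT- and 269, 236 and 242 CPM in tdT+ sdCAMs. No sdCAM library fell to the level of an MG library. Between the cell types the log2 fold change of Gpi1 was 0.89 (SE 0.14, adjusted p = 5.81e-05), 1.10 (SE 0.14, adjusted p = 4.15e-06) and 1.19 (SE 0.16, adjusted p = 3.86e-06).

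Phosphofructokinase, the committed step of glycolysis, is built from the products of Pfkl, Pfkm and Pfkp, and the 3 genes did not move together. Pfkp was at 1.19, 3.59, 2.05, 1.71 and 2.6 CPM in MG CTL and 26, 24, 30.5, 30.2 and 12.8 CPM in tdT- CTL sdCAMs. In BLZ945 animals it was at 2.61, 3.27, 4.35, 11.3 and 4.4 CPM in MG, 48.4, 39.9, 28.3, 29.2 and 52.1 CPM in tdT- and 69.5, 39.8 and 40 CPM in tdT+ sdCAMs. Every sdCAM library was above every MG library. For sdCAMs against MG, the log2 fold change of Pfkp was 3.47 (SE 0.41, adjusted p = 1.01e-06), 2.94 (SE 0.40, adjusted p = 5.73e-06) and 3.26 (SE 0.42, adjusted p = 1.93e-06). Pfkm was at 6.42, 2.45, 7.78, 4.01 and 8.42 CPM in MG CTL and 7.5, 6.56, 5.23, 9 and 7.78 CPM in tdT- CTL sdCAMs, which overlapped widely. In BLZ945 animals Pfkm was at 4.11, 3.52, 2.73, 5.23 and 1.1 CPM in MG, 9.65, 4.33, 7.82, 3.8 and 26.8 CPM in tdT- and 23.9, 12.2 and 20 CPM in tdT+ sdCAMs, and only the tdT+ libraries lay clear of MG. Its log2 fold change was 0.32 (SE 0.52, adjusted p = 0.733), 1.66 (SE 0.54, adjusted p = 0.0216) and 2.48 (SE 0.58, adjusted p = 0.00241). The tdT- call in BLZ945 animals was lost with the animal as a block (adjusted p = 0.164) and without MG BLZ945 F3, MG BLZ945 M2 or tdT- BLZ945 M2 (adjusted p 0.0502 to 0.129), and the value fell to 0.95 without tdT- BLZ945 M2. Pfkl gave -0.47 (SE 0.19, adjusted p = 0.0734), -0.69 (SE 0.19, adjusted p = 0.0075) and -0.71 (SE 0.22, adjusted p = 0.0192), and was called lower in BLZ945 animals. For tdT+ sdCAMs Pfkl lost its call without tdT+ BLZ945 F2 or MG BLZ945 F3 (adjusted p 0.0531 to 0.0983).

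Of the lower part of the pathway, Gapdh, the oxidising step, was the member called in every comparison. Gapdh was at 380.3, 359.7, 390.2, 448 and 478 CPM in MG CTL and 282.8, 231, 314, 250.2 and 406 CPM in tdT- CTL sdCAMs. After BLZ945 it was at 336, 417, 495, 349 and 337 CPM in MG, 223, 316, 262.7, 262 and 307 CPM in tdT- and 279.8, 233 and 300 CPM in tdT+ sdCAMs. The groups overlapped in CTL animals, where tdT- M2 was high, and were separate in BLZ945 animals. In log2 units the fold change of Gapdh was small, -0.46 (SE 0.15, adjusted p = 0.0281), -0.49 (SE 0.15, adjusted p = 0.0176) and -0.51 (SE 0.18, adjusted p = 0.0345). In CTL animals Gapdh lost its call without MG CTL M1, tdT- CTL M1, tdT- CTL F2 or MG CTL M2 (adjusted p 0.0636 to 0.0811), in BLZ945 animals without MG BLZ945 F3 (adjusted p = 0.0634), and for tdT+ sdCAMs without MG BLZ945 F2, tdT+ BLZ945 F2, MG BLZ945 F3 or tdT+ BLZ945 F3 (adjusted p 0.0623 to 0.145). Ldha, which reduces pyruvate to lactate, passed in CTL animals at -0.58 (SE 0.16, adjusted p = 0.00955) and not in BLZ945 animals, at -0.37 (SE 0.16, adjusted p = 0.0808) for tdT- and -0.38 (SE 0.18, adjusted p = 0.129) for tdT+ sdCAMs. The animal as a block brought the tdT- value to an adjusted p of 0.0368. Pgam1, a mutase of the lower pathway, passed for tdT- sdCAMs in BLZ945 animals alone, at -0.72 (SE 0.22, adjusted p = 0.017), and lost the call without MG BLZ945 F3 (adjusted p = 0.0789). The remaining enzymes of the chain (Aldoa, Tpi1, Pgk1, Eno1 and Pkm) and the regulator Pfkfb4 passed in none of the 3 comparisons, with log2 fold changes of -0.28 to 0.12 in CTL animals and -0.27 to -0.01 in BLZ945 animals for tdT- sdCAMs. For tdT+ sdCAMs their log2 fold changes were -0.60 (Pkm) to 0.16 (Pfkfb4). With the animal as a block Pkm was called lower in tdT+ sdCAMs (adjusted p = 0.0284). Aldoc, an aldolase best known from astrocytes, passed for tdT+ sdCAMs against MG at 2.62 (SE 0.76, adjusted p = 0.0127), but not with the block (adjusted p = 0.0581) nor without tdT+ BLZ945 F3, where the value fell to 1.51 (adjusted p = 0.194). For tdT- sdCAMs Aldoc gave 1.57 (SE 0.67, adjusted p = 0.0928) in CTL animals, where the groups were separate, and 1.70 (SE 0.67, adjusted p = 0.0583) in BLZ945 animals. DESeq2 called both (adjusted p = 0.037 and 0.016), and edgeR called the latter without tdT- BLZ945 M2, at 2.02 (adjusted p = 0.000103). The 6 astrocyte markers summed to 145 to 299.6 CPM in MG and 46.8 to 259.6 CPM in sdCAMs, and to 82.3, 191 and 65.6 CPM in tdT+ F2, F3 and M2. Aldoc was at 14.5, 57.9 and 11.2 CPM in these libraries, and 4 oligodendrocyte markers at 83.1, 275.3 and 87.9 CPM, of which the F3 sum was the highest of all 23 libraries. The part of these cells in the Aldoc difference was not tested.

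**Figure D2:**
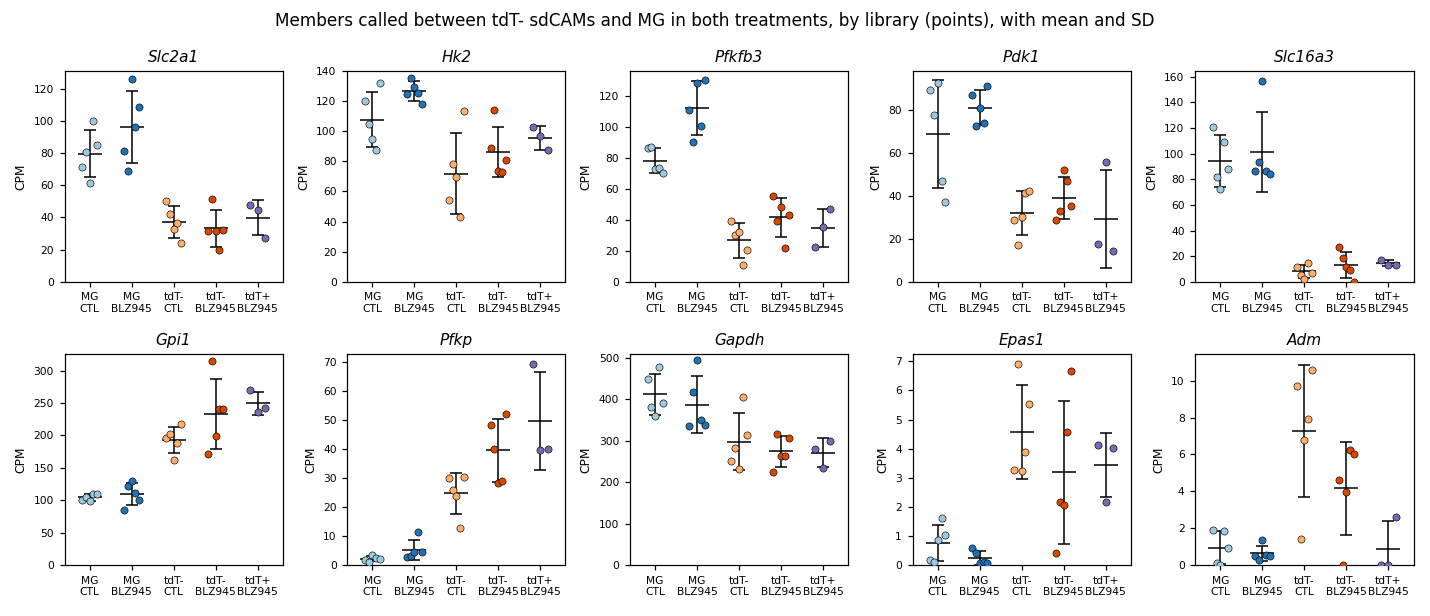
Levels in CPM, on axes that start at 0, of the 10 members called between tdT- sdCAMs and MG in both treatments. Points are libraries, bars are the mean and SD of each group. Slc16a3, Slc2a1 and Pfkfb3 lie lower and Gpi1 and Pfkp higher in each of the 3 sdCAM groups than in MG of the same treatment, without overlap.

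The alpha subunits differed from each other. Epas1 was close to the floor of detection in MG, at 0.0918, 0.875, 1.03, 0.171 and 1.61 CPM in CTL and 0.602, 0.419, 0.0853, 0.0886 and 0.0845 CPM in BLZ945 animals. In sdCAMs it was at 6.91, 3.24, 5.53, 3.26 and 3.89 CPM (tdT- CTL), 0.429, 2.16, 2.07, 4.58 and 6.68 CPM (tdT- BLZ945) and 4.12, 2.18 and 4.01 CPM (tdT+ BLZ945). The levels were low throughout, but the tdT- CTL libraries all exceeded the MG CTL libraries. Epas1 was called higher in sdCAMs in all 3 comparisons (adjusted p = 0.0234, 0.00315 and 0.0042), and no fold is given, because 2 of 5 MG CTL and 3 of 5 MG BLZ945 libraries held 3 counts or fewer. In CTL animals the call was lost with the animal as a block (adjusted p = 0.0593) and without MG CTL M1, MG CTL F1 or tdT- CTL F1 (adjusted p 0.0552 to 0.061). Endothelial markers, given above for Slc2a1, are of a cell type rich in Epas1, and the sums of the fibroblast and neuron markers are given above. The part of these cells in the Epas1 difference was not tested. Hif1a was at 133, 112, 144, 143 and 149.7 CPM in MG CTL and 88.7, 101, 92.2, 116 and 128 CPM in tdT- CTL sdCAMs. In BLZ945 animals Hif1a was at 161, 108, 151, 146 and 177 CPM in MG, 140.4, 61.4, 67.5, 101 and 152 CPM in tdT- and 75.5, 80.8 and 77.7 CPM in tdT+ sdCAMs. Only the tdT+ libraries lay entirely below MG. Its log2 fold change was -0.37 (SE 0.21, adjusted p = 0.227), -0.50 (SE 0.21, adjusted p = 0.072) and -0.93 (SE 0.24, adjusted p = 0.00568). For tdT- sdCAMs in BLZ945 animals Hif1a was called with the block (adjusted p = 0.00943), and without tdT- BLZ945 F1 (0.0288), MG BLZ945 F2 (0.0399) or tdT- BLZ945 M2 (0.0138).

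Among the hypoxia response genes, 2 of 12 passed in CTL animals, Adm higher and Bnip3l lower in sdCAMs (16.7%, beside 25.6% of all genes tested). In BLZ945 animals 4 passed for tdT- sdCAMs (Adm and Ndrg1 higher, P4ha1 and Egln3 lower), or 33.3% beside 32.4% of all genes, and 4 for tdT+ sdCAMs (Ndrg1 higher, P4ha1, Bnip3l and Mxi1 lower), or 33.3% beside 25.2%. P4ha1 encodes a subunit of the collagen prolyl hydroxylase and was high in MG, at 394, 448, 373, 395 and 345 CPM in CTL and 492, 431, 447, 428 and 413 CPM in BLZ945 animals. It was at 308, 296, 253, 256.8 and 262.6 CPM in tdT- CTL, 221, 116, 240.3, 235 and 381 CPM in tdT- BLZ945 and 100.4, 132 and 242 CPM in tdT+ BLZ945 sdCAMs. All sdCAM libraries were below the MG libraries of their treatment. Between the cell types the log2 fold change of P4ha1 was -0.50 (SE 0.19, adjusted p = 0.054) in CTL animals, just outside the threshold, -0.88 (SE 0.19, adjusted p = 0.00106) for tdT- and -1.48 (SE 0.27, adjusted p = 0.000178) for tdT+ sdCAMs. Ndrg1, a stress-responsive gene, was at 1.19, 1.84, 0.940, 1.2 and 4.29 CPM in MG CTL and 3.2, 3.09, 0.592, 8.14 and 2.84 CPM in tdT- CTL sdCAMs. In BLZ945 animals Ndrg1 was at 1.61, 1.34, 0.512, 1.59 and 0.845 CPM in MG, 5.47, 25.1, 7.46, 6.91 and 5.23 CPM in tdT- and 2.39, 11.3 and 10.2 CPM in tdT+ sdCAMs, where every sdCAM library exceeded every MG library. Its log2 fold change was 0.92 (SE 0.64, adjusted p = 0.345), 3.09 (SE 0.69, adjusted p = 0.0015) and 2.75 (SE 0.74, adjusted p = 0.00832). Without tdT- BLZ945 F2, the highest library, the second value was 2.41 (adjusted p = 0.00736).

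Adm encodes adrenomedullin, a vasodilator peptide. It was at 0.0918, 0, 0.940, 1.88 and 1.84 CPM in MG CTL and 1.43, 6.79, 10.6, 9.69 and 7.94 CPM in tdT- CTL sdCAMs. With BLZ945 it was at 0.502, 0.251, 1.36, 0.532 and 0.507 CPM in MG, 4.61, 0, 3.95, 6.23 and 6.01 CPM in tdT- and 0, 0 and 2.61 CPM in tdT+ sdCAMs. The tdT- groups overlapped MG through tdT- CTL F1 and tdT- BLZ945 F2. Adm was called higher in tdT- sdCAMs in CTL (adjusted p = 0.0346) and BLZ945 animals (adjusted p = 0.0429), and did not pass for tdT+ sdCAMs (adjusted p = 0.842). No fold is given, because MG lay near the floor. Adm lost its call in CTL animals without tdT- CTL M1, MG CTL F1, MG CTL F2, tdT- CTL F2, tdT- CTL M2, MG CTL F3 or tdT- CTL F3 (adjusted p 0.0508 to 0.0791), and in BLZ945 animals with the block (adjusted p = 0.124) and without MG BLZ945 F1, tdT- BLZ945 F1, MG BLZ945 F2, tdT- BLZ945 F3, MG BLZ945 M1, tdT- BLZ945 M1, MG BLZ945 M2 or tdT- BLZ945 M2 (adjusted p 0.0565 to 0.0948).

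Bnip3l, a receptor for the removal of mitochondria, had log2 fold changes of -0.74 (SE 0.18, adjusted p = 0.00458), -0.44 (SE 0.18, adjusted p = 0.0751) and -0.70 (SE 0.22, adjusted p = 0.0217). With the block it was called in all 3 (adjusted p = 0.0226 in BLZ945 tdT- sdCAMs). It was also called there without tdT- BLZ945 M1 (adjusted p = 0.0205), and for tdT+ sdCAMs Bnip3l lost its call without tdT+ BLZ945 F3 or tdT+ BLZ945 M2 (adjusted p 0.0862 to 0.095). Mxi1, a repressor that opposes MYC, passed for tdT+ sdCAMs at -0.68 (SE 0.23, adjusted p = 0.035), and it lost its call without MG BLZ945 F1, MG BLZ945 F2, tdT+ BLZ945 F2, MG BLZ945 F3, tdT+ BLZ945 F3 or tdT+ BLZ945 M2 (adjusted p 0.0593 to 0.117). Egln3, an oxygen-sensing hydroxylase, was at 0.734, 0, 1.37, 2.48 and 0.459 CPM in MG CTL, 3.81, 4.44, 7.67, 3.19 and 1.61 CPM in MG BLZ945 and 0, 0, 1.17, 0 and 0 CPM in tdT- BLZ945 sdCAMs. The tdT- BLZ945 sdCAMs held reads of it in F3 alone, and the call against MG BLZ945 (adjusted p = 0.031) was lost without tdT- BLZ945 F1, MG BLZ945 F2, tdT- BLZ945 F2, MG BLZ945 F3, tdT- BLZ945 M1 or tdT- BLZ945 M2 (adjusted p 0.0503 to 0.0681). No fold is given, because without tdT- BLZ945 F3 the group was at 0. The hydroxylase Egln1, the angiogenic factor Vegfa, the mitophagy gene Bnip3, the mTOR inhibitor Ddit4, the lipase inhibitor Angptl4 and Ankrd37 passed in none of the 3 comparisons.

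The second question was whether depletion and repopulation left a mark on these genes. No member passed the test for BLZ945 against CTL in MG or in tdT- sdCAMs, for tdT+ BLZ945 sdCAMs against either tdT- group, or for the difference between the BLZ945 effects in the 2 cell types, by edgeR. The shares of all genes called were 0.408%, 0%, 0.206% (against tdT- BLZ945), 0.283% (against tdT- CTL) and 0.0394%. At an unadjusted p-value under 0.05 the counts of members were 5, 2, 0, 4 and 1, beside 13.2%, 5.33%, 6.91%, 7.44% and 8.69% of all genes. DESeq2 called 1 member in MG, Pfkfb3, and 0 in the others. Adm and Epas1 were too low to be tested within MG, and all 35 were tested elsewhere.

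Pfkfb3 in MG came nearest to the threshold. The values of both MG groups, given above, did not overlap, since the lowest BLZ945 library (F2) stood above the highest CTL library. In log2 units the fold change was 0.51 (SE 0.12, adjusted p = 0.0785), with a 95% interval of 0.25 to 0.77. It was called by DESeq2 (adjusted p = 0.0103) and by edgeR without MG BLZ945 F2 (adjusted p = 0.0336). In tdT- sdCAMs the log2 fold change of the same gene was 0.65 (SE 0.35, adjusted p = 0.984), and the groups overlapped. Pfkfb3 was the only one of the 33 members tested in MG whose groups were separate, against 3.09% of all genes.

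Ddit4, an inhibitor of mTOR induced by hypoxia, glucocorticoids and energy stress, varied widely between animals. In MG it was at 7.52, 51.7, 15.9, 15.8 and 3.22 CPM in CTL and 31.2, 31.6, 80.9, 33.9 and 37.5 CPM in BLZ945 animals. In sdCAMs it was at 2.19, 28.5, 16.4, 2.95 and 3.73 CPM (tdT- CTL), 19.3, 23.5, 90.5, 33.5 and 53.2 CPM (tdT- BLZ945) and 30.3, 114 and 13.8 CPM (tdT+ BLZ945). The highest library of every group came from F2 in CTL and from F3 in BLZ945 animals, in MG and sdCAMs alike. BLZ945 against CTL gave 1.19 (SE 0.50, adjusted p = 0.33) in MG and 2.04 (SE 0.74, adjusted p = 0.741) in tdT- sdCAMs, and tdT+ BLZ945 against tdT- CTL sdCAMs gave 2.29 (SE 0.81, adjusted p = 0.525). CTL and BLZ945 overlapped in MG and in tdT- sdCAMs through CTL F2.

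The other members with the lowest p-values in these contrasts were Egln3 and Pfkp in MG, at 2.02 (SE 0.70, adjusted p = 0.23) and 1.20 (SE 0.46, adjusted p = 0.281), and Pfkp and Ndrg1 in tdT- sdCAMs, at 0.69 (SE 0.29, adjusted p = 0.836) and 1.48 (SE 0.72, adjusted p = 0.958). None of these groups was separate. The BLZ945 effect on Ndrg1 was larger in tdT- sdCAMs than in MG by 2.17 on the log2 scale (adjusted p = 0.48), which did not pass. Over all 35 members the median log2 fold change was 0.10 in MG, where 23 of the 33 tested were above 0, and 0.07 in tdT- sdCAMs, where 20 of 35 were. The corresponding medians over all genes tested were close to 0, at 0.00019 and -0.0012.

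**Figure D3:**
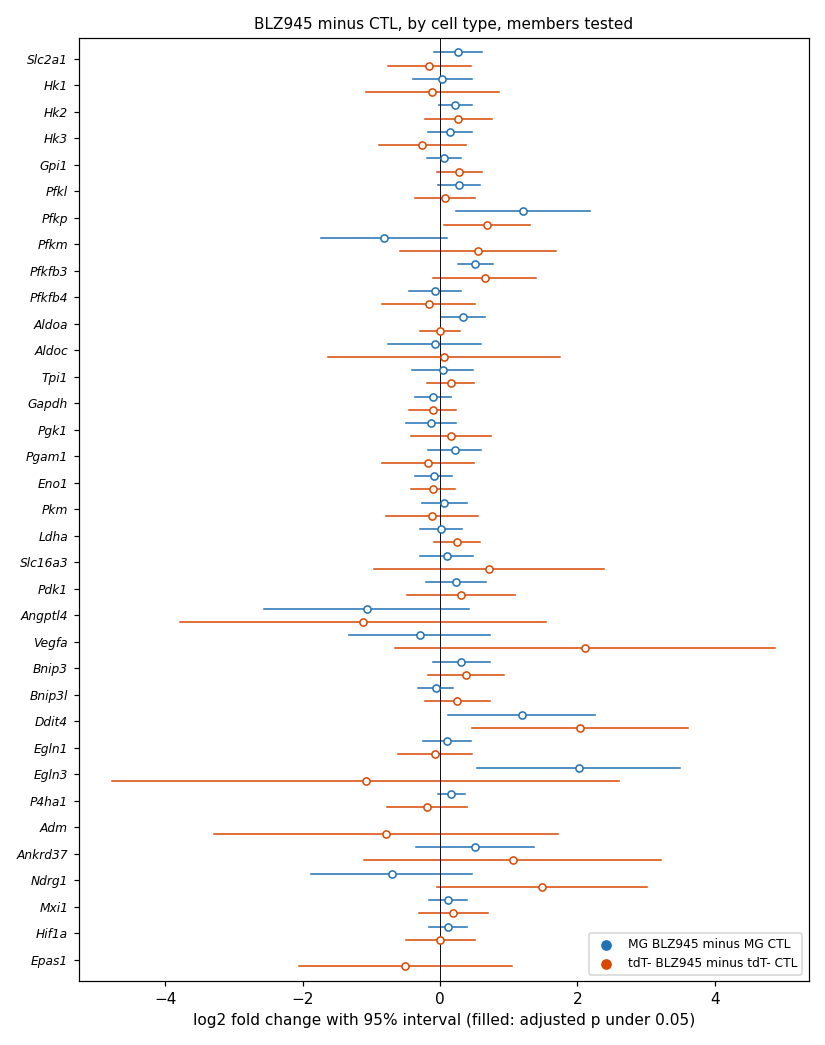
Log2 fold changes of the members for BLZ945 against CTL, with 95% intervals, in MG and in tdT- sdCAMs. No point is filled, because no member passed an adjusted p-value of 0.05. Adm and Epas1 have no MG point.

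The tdT+ and tdT- sdCAMs of BLZ945 animals, which differ in whether the cells descend from Ccr2-expressing cells marked by tamoxifen, did not separate in any member, against 3.4% of all genes whose groups did not overlap. The lowest p-values were those of P4ha1 at -0.61 (SE 0.32, adjusted p = 0.763), Angptl4 at 2.42 (SE 1.41, adjusted p = 0.819), Bnip3 at -0.50 (SE 0.31, adjusted p = 0.833) and Hif1a at -0.44 (SE 0.28, adjusted p = 0.847). The values of P4ha1 and Hif1a are given above. Angptl4 was at 1.94, 5.02, 1.28, 2.17 and 4.7 CPM in tdT- CTL, 1.18, 0, 5.66, 0 and 0 CPM in tdT- BLZ945 and 11.3, 5.24 and 6.12 CPM in tdT+ BLZ945 sdCAMs. It was missing from 3 of the 5 tdT- BLZ945 libraries and present in every tdT+ library. Bnip3 was at 17.1, 21.5, 29.8, 30.1 and 24.4 CPM in tdT- CTL, 29.9, 37.6, 29.2, 27.2 and 35 CPM in tdT- BLZ945 and 29.1, 19.7 and 19.7 CPM in tdT+ BLZ945 sdCAMs, and the groups overlapped. The 95% interval of the difference was -1.29 to 0.07 for P4ha1 and -0.56 to 5.41 for Angptl4.

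Against tdT- CTL sdCAMs, which changes both treatment and descent and uses the same tdT+ libraries as the previous contrast, 6 of the 35 members were separate, 4 higher and 2 lower, against 8.33% of all genes. Pfkp gave 1.00 (SE 0.33, adjusted p = 0.467), P4ha1 -0.80 (SE 0.32, adjusted p = 0.604) and Pfkm 1.36 (SE 0.60, adjusted p = 0.624). Beside these, the values for tdT+ against tdT- BLZ945 were 0.31 for Pfkp, -0.61 for P4ha1 and 0.81 for Pfkm.

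The mean of log2(CPM + 1) over all 35 members was 5.22 ± 0.12 in MG CTL, 5.35 ± 0.18 in MG BLZ945, 5.08 ± 0.12 in tdT- CTL, 5.20 ± 0.15 in tdT- BLZ945 (SD, n = 5 each) and 5.25 ± 0.08 in tdT+ BLZ945 sdCAMs (SD, n = 3). Over the 21 glycolysis genes it was 6.15 ± 0.08, 6.26 ± 0.16, 5.96 ± 0.15, 6.02 ± 0.10 and 6.16 ± 0.06 in the same order. Over the 12 hypoxia response genes it was 3.79 ± 0.22, 4.01 ± 0.26, 3.62 ± 0.31, 3.93 ± 0.30 and 3.82 ± 0.16. Taken without regard to animal, the ranges of the groups overlapped in all 3 means. Between libraries of the same animal or pool, the glycolysis mean was lower in tdT- sdCAMs than in MG in 5 of 5 CTL pairs (differences of -0.33 to -0.07) and in 5 of 5 BLZ945 pairs (-0.39 to -0.04), and in tdT+ sdCAMs in 3 of 3 (-0.30 to -0.02). It was higher in tdT+ than in tdT- sdCAMs in 3 of 3 pairs (0.10 to 0.22), although 10 of the 21 genes had a log2 fold change above 0 in that contrast, and with the median over the list the group difference fell from 0.15 to 0.0501. The hypoxia mean was lower in tdT- sdCAMs than in MG in 4 of 5 CTL and 3 of 5 BLZ945 pairs. No test was made of these means, and a mean over the set hides members that ran in opposite directions, such as Pfkp and Slc16a3. Between tdT- sdCAMs and MG the glycolysis mean differed by -0.19 in CTL and -0.24 in BLZ945 animals, and the hypoxia mean by -0.17 and -0.09. With the median over the list in place of the mean, the glycolysis differences became -0.68 and -0.84, and the hypoxia difference in BLZ945 animals turned to 0.51. That median is the middle level among the genes of a library, so its difference is not the typical change of a gene. The median log2 fold change was -0.23 and -0.24 over the glycolysis genes, and -0.46 and -0.27 over the hypoxia response genes. The difference of the hypoxia mean in BLZ945 animals also lost its direction without MG BLZ945 F3 (0.022) or tdT- BLZ945 F2 (0.0057). It stood at -0.19 without tdT- BLZ945 F3, -0.15 without MG BLZ945 M2 and -0.05 without tdT- BLZ945 M1. In CTL animals the hypoxia difference was -0.08 without tdT- CTL F1, -0.09 without MG CTL M1 and -0.26 without tdT- CTL F2.

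**Figure D4:**
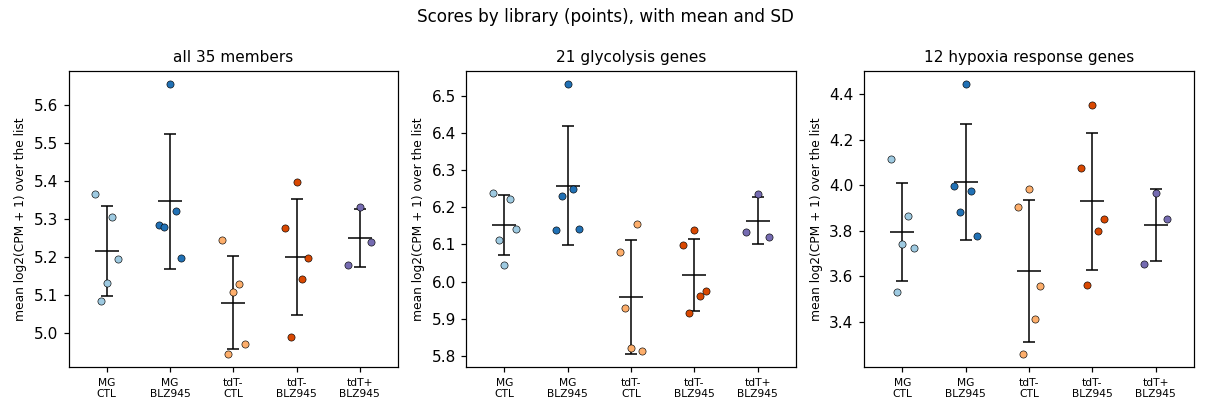
Mean log2(CPM + 1) per library over all 35 members, the 21 glycolysis genes and the 12 hypoxia response genes, with group mean and SD. MG BLZ945 F3 is the highest library in each panel.

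For some members the same animal stood highest in both cell types. In CTL animals, M2 was the highest MG library for 10 of the 21 glycolysis genes and the highest tdT- library for 10, beside 24.6% and 21.8% of all genes with at least 10 counts in 10 libraries. The M2 libraries also stood apart in markers. MG CTL M2 had the lowest sum of the microglial markers in its group (17101 CPM, against 23036 to 26221 CPM in the other 4). The sum of 8 immediate early genes was 10269 CPM in tdT- CTL M2, against 21201 to 27448 CPM in the other 4, and that library had the highest astrocyte marker sum of its group. Their part in these levels was not tested. Pkm, the pyruvate kinase gene, was at 273.2, 245, 258.01, 284 and 393 CPM in MG CTL and 209, 233, 208, 279 and 453 CPM in tdT- CTL sdCAMs. Ldha was at 345, 368, 393, 428 and 463 CPM in MG CTL and 255, 232, 228, 242 and 374 CPM in tdT- CTL sdCAMs. In both genes M2 stood highest in both cell types. The animal with the highest level was the same in MG and in tdT- sdCAMs for 13 of the 35 members in CTL animals (37.1%) and for 8 of 35 in BLZ945 animals (22.9%), against 27.0% of those 11792 genes and of 11746 in BLZ945 animals. The members' share was above that of all genes in CTL and below it in BLZ945 animals. In BLZ945 animals, F3 was the highest MG library for 12 of the 21 glycolysis genes and the highest tdT- library for 4, beside 16.8% and 14.1% of all genes. F3 also had the highest mean over the 21 glycolysis genes in each BLZ945 population, at 6.53 in MG, 6.14 in tdT- and 6.24 in tdT+ sdCAMs. Ldha was at 346, 411, 578, 334 and 366 CPM in MG BLZ945 and 302, 256, 367, 314 and 324 CPM in tdT- BLZ945 sdCAMs, and Tpi1 at 147, 166, 301, 126 and 112 CPM and 132, 175, 130.5, 158 and 179.7 CPM. The labels do not give lesion size or hemisphere for each animal, and a relation to either was not tested.

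**Figure D5:**
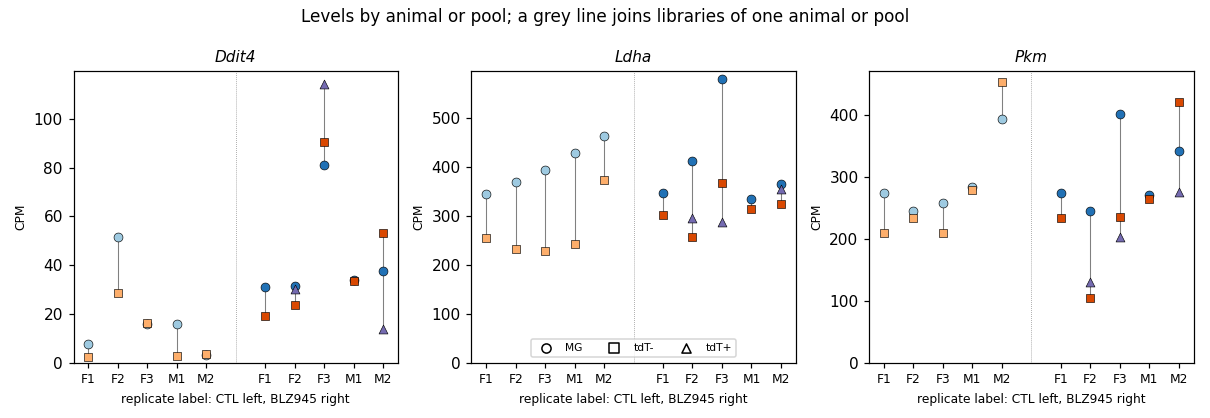
Levels of Ddit4, Ldha and Pkm in CPM by animal or pool, CTL on the left and BLZ945 on the right of each panel, with circles for MG, squares for tdT- and triangles for tdT+ sdCAMs. Ddit4 is highest in F2 among CTL and in F3 among BLZ945 animals in each population.

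Beside the members, 65 other genes of these pathways were examined. Of the 55 tested in CTL animals, 16 passed for tdT- sdCAMs against MG, 6 higher and 10 lower (29.1%, beside 25.6% of all genes tested), in BLZ945 animals 19 of 55, 8 higher and 11 lower (34.5%, beside 32.4%), and for tdT+ sdCAMs 12 of 59, 4 higher and 8 lower (20.3%, beside 25.2%). Among those that passed, the largest rises in CTL animals were those of the haem oxygenase gene Hmox1 at 3.30 (SE 0.52, adjusted p = 4.44e-05), the collagen hydroxylase subunit P4ha2 at 2.13 (SE 0.68, adjusted p = 0.0248) and G6pdx, which opens the pentose phosphate pathway, at 0.85 (SE 0.14, adjusted p = 6.9e-05). Falls that passed included those of the collagen cross-linking enzyme gene Lox (adjusted p = 0.0084) and the lactate dehydrogenase subunit Ldhb at -4.44 (SE 0.32, adjusted p = 4.68e-10). Lox was at 0 or 1 count in every tdT- library of both treatments and entered the test through the MG libraries, so no fold is given for it. In BLZ945 animals Hmox1 gave 3.25 (SE 0.52, adjusted p = 4.87e-05) and P4ha2 2.32 (SE 0.69, adjusted p = 0.0126), while Ldhb gave -3.57 (SE 0.31, adjusted p = 7.42e-09), and Lox was again called lower (adjusted p = 0.00217). Ndufa4l2, a hypoxia-induced mitochondrial gene, was called higher there (adjusted p = 0.0242), but it was too low to be tested within MG and entered the test through the sdCAM libraries, and no fold is given, because all 5 MG BLZ945 libraries held 3 counts or fewer. Among the 48 genes tested within both cell types, which leaves out Ndufa4l2 and Lox, 15 passed in CTL animals (31.2%, 6 higher), 17 in BLZ945 animals (35.4%, 7 higher) and 12 for tdT+ sdCAMs (25%, 4 higher). The share of all genes under this restriction is not given, so these counts have no background of their own. For tdT+ sdCAMs the largest rises that passed were Hmox1 at 2.52 (SE 0.53, adjusted p = 0.00105), the pyruvate carrier Mpc2 at 0.72 (SE 0.21, adjusted p = 0.0142) and Cited2, a competitor of the hypoxia-inducible factors, at 0.68 (SE 0.23, adjusted p = 0.0358), and falls included Ldhb at -3.69 (SE 0.42, adjusted p = 3.95e-07) and Tigar, which lowers the activator of phosphofructokinase, at -2.39 (SE 0.68, adjusted p = 0.0112).

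Within a cell type 1 of these genes passed. Bhlhe40, a transcription factor gene responsive to hypoxia, was at 3.21, 1.66, 0.940, 0.512 and 5.05 CPM in MG CTL and 12.4, 9.47, 24.6, 15.3 and 17.5 CPM in MG BLZ945. The groups did not overlap, with every BLZ945 library above every CTL library. The log2 fold change was 2.77 (SE 0.47, adjusted p = 0.0132), in 1 of 49 genes tested (2.04%), against 0.408% of all genes. In tdT- sdCAMs it was at 3.37, 2.55, 4.05, 1.55 and 3.89 CPM in CTL and 52, 3.35, 16.2, 7.79 and 4.79 CPM in BLZ945 animals, and in tdT+ sdCAMs at 3.25, 1.39 and 18.1 CPM, where the groups overlapped.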

How the data were processed

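The authors deposited whole-number read counts per gene symbol for 23 libraries, not normalized. Per the labels, reads were converted with bcl2fastq 2.20, aligned with STAR 2.7.11a and counted with featureCounts 2.0.6 on a Gencode annotation. Which mouse build served, and how multi-mapping reads and strand were handled, is not given in the sources used here, so genes are identified by symbol. Pseudogenes and related copies of the enzyme genes could share reads. Copies searched by name held at most 26 counts in a library (Aldoart1), and pseudogenes under other names were not searched. The RNA was amplified by PCR without molecular identifiers, so count-based limits cover counting error only.

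Tests used the edgeR package (4.0.16, R 4.3.3; filterByExpr, TMM, glmQLFit and glmQLFTest) on these counts, with Benjamini-Hochberg adjustment over all genes tested and a call at an adjusted p-value under 0.05. The models held 10 MG libraries, 13 sdCAM libraries, 20 libraries (tdT- sdCAMs and MG, with the interaction) or all 23 (tdT+ sdCAMs against MG), without a replicate block. Models with both cell types fitted a shared spread, although the cell types differed in it. Over genes with at least 10 counts in 10 libraries, the median SD as a share of the mean was 20.0% in MG CTL and 27.8% in tdT- CTL. In BLZ945 animals it was 19.5% in MG, 44.9% in tdT- and 35.6% in tdT+ sdCAMs. CPM values used TMM factors over the 23 libraries, and means over the set used log2(CPM + 1). Alternatives were DESeq2 1.42.0, other size factors and filters, other pseudocounts, the median over the list, leaving out single libraries and a replicate block. Within a treatment the labels give the same animals for the same label, so the block pairs cell types, and the correlation of same-labelled deviations was 0.0287 to 0.183 for tdT- sdCAMs against MG. The highest correlation with another label was -0.0234 to 0.0486, and only in BLZ945 M1 was it above that of the same label (0.0486 against 0.0287). Between treatments labels are shared by different animals. Labels do not tell separate cultures or days, so p-values measure the spread between libraries. The scripts were tested on simulated data.

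The members, the gene lists and the tests were chosen with earlier results of these data known. Per-library values are given for members called within a cell type (0), for the 6 with the largest change in each direction among those called between tdT- sdCAMs and MG in both treatments, and for the 4 with the lowest p-value in each contrast within a cell type. Other values were chosen after they were seen. Promoters were read from RefSeq (GRCm38.p6), taking the first entry of each gene.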

Additional observations from a re-analysis of the deposited data

Results flagged for a closer look

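In 14 of 152 sets of 5 libraries (35 members and 3 means in each of 4 groups), 1 library stood farther from the others than Dixon's criterion allows, and chance gives about 1 in 20. The library was the highest in 7 and the lowest in 7.

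Aldoc was at 3.94 CPM in MG CTL F2, below the 4.82 to 5.04 CPM of the other 4 libraries. Slc16a3 was at 157 CPM in MG BLZ945 F3, above the 84.2 to 93.3 CPM of the other 4 libraries. Ddit4 was at 80.9 CPM in MG BLZ945 F3, above the 31.2 to 37.5 CPM of the other 4 libraries. The mean of log2(CPM + 1) over all 35 members in MG BLZ945 F3 was 5.65, and 5.20 to 5.32 in the other 4 libraries. The mean of log2(CPM + 1) over the 21 glycolysis genes in MG BLZ945 F3 was 6.53, and 6.14 to 6.25 in the other 4 libraries. Pfkp was at 12.8 CPM in tdT- CTL M2, below the 24 to 30.5 CPM of the other 4 libraries. Ldha was at 374 CPM in tdT- CTL M2, above the 228 to 255 CPM of the other 4 libraries. Adm was at 1.43 CPM in tdT- CTL F1, below the 6.79 to 10.6 CPM of the other 4 libraries. Hk1 was at 4.54 CPM in tdT- BLZ945 F2, below the 35.9 to 48.5 CPM of the other 4 libraries. Aldoc was at 0 CPM in tdT- BLZ945 M2, below the 11 to 23.4 CPM of the other 4 libraries. Egln3 was at 1.17 CPM in tdT- BLZ945 F3, and listed at 0 in the other 4 libraries. Adm was at 0 CPM in tdT- BLZ945 F2, below the 3.95 to 6.23 CPM of the other 4 libraries. Ankrd37 was at 0.389 CPM in tdT- BLZ945 M1, below the 4.22 to 7.9 CPM of the other 4 libraries. Ndrg1 was at 25.1 CPM in tdT- BLZ945 F2, above the 5.23 to 7.46 CPM of the other 4 libraries. In MG BLZ945 the library was F3 each time. The tdT- BLZ945 library F2 also had a low sum of the 8 immediate early genes, at 10040 CPM, against 18066 to 24166 CPM in the other 4 libraries. In tdT+ BLZ945 sdCAMs that sum was 7249 CPM in F2, 25184 CPM in F3 and 25229 CPM in M2. Haemoglobin genes held 0.0271% of the counts of tdT- BLZ945 F2, the highest share of all libraries. Why these libraries stood apart was not tested.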

How the results depend on the processing

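The counts of members called stayed within 1.5 times of the values above under RLE size factors, library totals alone, the study's filter, a minimum of 10 counts in every library, the models of other library sets and the replicate block, except that DESeq2 called 1 member (Pfkfb3) in MG BLZ945 against CTL, where edgeR called 0. With 1 library left out the counts were 0 to 1 in MG BLZ945 against CTL, 9 to 11 for tdT- CTL, 11 to 16 for tdT- BLZ945 and 12 to 16 for tdT+ BLZ945 sdCAMs against MG, and 0 in the other comparisons.

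Same-labelled libraries of the 2 cell types came from the same animal or pool. With the replicate block for animal, 12 members were called for tdT- CTL sdCAMs against MG (11 of them shared with the count above), 17 for tdT- BLZ945 (14 shared, 4 higher and 13 lower, against 6 and 10) and 16 for tdT+ BLZ945 (15 shared), and 0 in the contrasts within a cell type. For the interaction, a block by animal or pool, added after seeing the data, also gave 0. The calls that the block changed are given beside the genes, and it changed no others. Scaling by library totals alone gave 4 higher and 11 lower in CTL, 5 and 13 in BLZ945 tdT- and 6 and 12 in tdT+ sdCAMs, and a minimum of 10 counts in every library gave 2 and 8, 3 and 8, and 3 and 9. DESeq2 called 14, 17 and 16. RLE size factors ended the calls of Hk2 for tdT- BLZ945 (adjusted p = 0.0594) and of Gapdh (0.0558) and Mxi1 (0.0527) for tdT+ sdCAMs. Adm lost its call in the model of all libraries in CTL (0.0814) and BLZ945 animals (0.0932), and in the latter under library totals alone (0.0531) and the study's filter (0.0562). P4ha1 in CTL animals gained one by DESeq2 (0.0402), library totals (0.0208) and the stricter filter (0.041). Library totals alone also added Pfkl and Mxi1 in CTL (adjusted p = 0.0251 and 0.048), Ldha, Bnip3l and Hif1a in BLZ945 tdT- (0.0151, 0.0148 and 0.0255) and Eno1 and Ldha in tdT+ sdCAMs (0.0461 and 0.0478), all lower.

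With the median over the list in place of the mean, differences over the set became for all 35 members 0.28 (tdT+ BLZ945 against tdT- CTL), -0.86 (tdT- CTL against MG CTL), -0.87 (tdT- BLZ945 against MG BLZ945) and -0.76 (tdT+ BLZ945 against MG BLZ945), for the 21 glycolysis genes 0.25 (MG BLZ945 against MG CTL), 0.0501 (tdT+ BLZ945 against tdT- BLZ945), -0.68 (tdT- CTL against MG CTL), -0.84 (tdT- BLZ945 against MG BLZ945) and -0.79 (tdT+ BLZ945 against MG BLZ945), for the 12 hypoxia response genes 0.57 (MG BLZ945 against MG CTL), 1.16 (tdT- BLZ945 against tdT- CTL), 0.83 (tdT+ BLZ945 against tdT- CTL), 0.51 (tdT- BLZ945 against MG BLZ945) and 0.18 (tdT+ BLZ945 against MG BLZ945). The last 2 turned from below 0 to above 0. These values compare the middle level of the list between groups and are not median changes of single genes. Members with a mean of at least 10 CPM alone gave for all 35 members -0.26 (tdT- CTL against MG CTL), -0.32 (tdT- BLZ945 against MG BLZ945) and -0.32 (tdT+ BLZ945 against MG BLZ945), for the 12 hypoxia response genes -0.57 (tdT+ BLZ945 against MG BLZ945), and library totals alone gave for the 21 glycolysis genes -0.38 (tdT- BLZ945 against MG BLZ945). All other mean differences moved by less than 1 SD between libraries. Depth limited the low members: 3 counts were 0.226 to 0.318 CPM per library, and Egln3, Adm, Epas1, Angptl4 and Vegfa lay near it in some libraries.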
